A study of Caenorhabditis elegans with 2 samples.

Results

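The ceh genes described here are the homeobox genes of Caenorhabditis elegans that carry a numbered ceh name (from C. elegans homeobox). They were taken as every protein-coding gene of the Ensembl WBcel235 annotation whose name is ceh followed by a number, leaving out the Hox gene ceh-13 and the cofactor genes ceh-20, ceh-40 and ceh-60. In all, 59 of 19985 protein-coding genes met that rule. Binding of the posterior Hox protein PHP-3 at these genes was read from ChIP-seq peak lists of whole L4 larvae, aged 48 hours, of strain RW12213, which carries the allele st12213[php-3::TY1::EGFP::3xFLAG] III, an insertion made at php-3 by CRISPR. Worms had been synchronized as starved L1 larvae after bleaching, and tagged PHP-3 was recovered with antibody to GFP. There were 2 biological replicates of this 1 strain and no second condition, so no test between groups was possible. Chromatin came from all tissues at once, so a weak peak in many cells and a strong peak in few cannot be told apart.

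Homeodomain proteins bind short AT-rich sequences and set cell identity, above all in neurons, and worm neurons can be told apart by the combination of homeobox genes they express. Hox proteins pattern the body axis, often by acting on other transcription factor genes, and bind many of their sites together with TALE-class partners of the PBC and MEIS families. PHP-3 and its neighbour NOB-1 are the Abdominal-B-type Hox proteins of the worm tail. The ceh genes fall in several homeodomain classes: ANTP genes related to Hox genes (18 members here), paired-like PRD genes (8), CUT genes (6), Six-type SINE genes (3), POU genes (2) and 1 LIM gene. The other 21, mostly genes with higher numbers in their names, were put in no class here.

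PHP-3 peaks were found at 8 of the 59 ceh genes, and 4 of those had a summit in their promoter window. A summit is the position named within each peak, and the promoter window ran from 1000 bp before the outermost 5′ end in the annotation to 200 bp after it. The 4 with a promoter summit were ceh-37, ceh-99, ceh-38 and ceh-19 (6.78% of members, against 7.94% of all protein-coding genes). A summit lay in the gene body, outside that window, at ceh-99, ceh-8 and ceh-43 (5.08% of members, against 5.22% of all protein-coding genes). For 6 members, among them ceh-58 and ceh-51, the 5′ end was the nearest of any protein-coding gene to a summit (10.2%, against 13.3% of all). By any of these links 13.6% of members had a peak, against 15.9% of all protein-coding genes. The shares of ceh genes with a peak were therefore near the background by each link.

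The list behind these counts held 3559 peaks made from both replicates and kept by a score scaled from the irreproducible discovery rate (IDR), a measure of disagreement between paired peak lists, with 830 the lowest score kept and 1000 the highest possible. Thresholded lists made from single replicates had 1728 peaks for replicate 1 and 2000 for replicate 2. Longer ranked lists hold weaker peaks too: 96056 series-wide, 50229 in replicate 1 and 59577 in replicate 2. The signal value is the authors' own height for each peak, and its scale may differ between lists, so peaks are ranked only within one. That scale, the read depth and hence the counting error behind it are unknown. Replicate values below are the highest signal of any peak in that replicate's ranked list that overlaps the series-wide peak by at least 1 bp.

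The 9 peaks linked to ceh genes had signal values of 92.5 to 382, with a median of 137, against a median of 120 over all 3559 peaks. The 4 promoter peaks were the strongest of the 9, from 168 to 382 with a median of 255, against a median of 127 over the 1405 promoter peaks of all protein-coding genes. With 4 peaks this is only a description, and 3 of the 4 also lay in promoter windows of other genes. Those 4 were also the only ones found in both replicates' own thresholded lists. In the whole list 35.3% of peaks were in both. Replicate 2 had the higher signal at 7 of the 9 peaks, as it did at 67.3% of the 3493 peaks that could be compared. The exceptions were the peaks nearest ceh-58 and ceh-51.

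**Figure D1:**
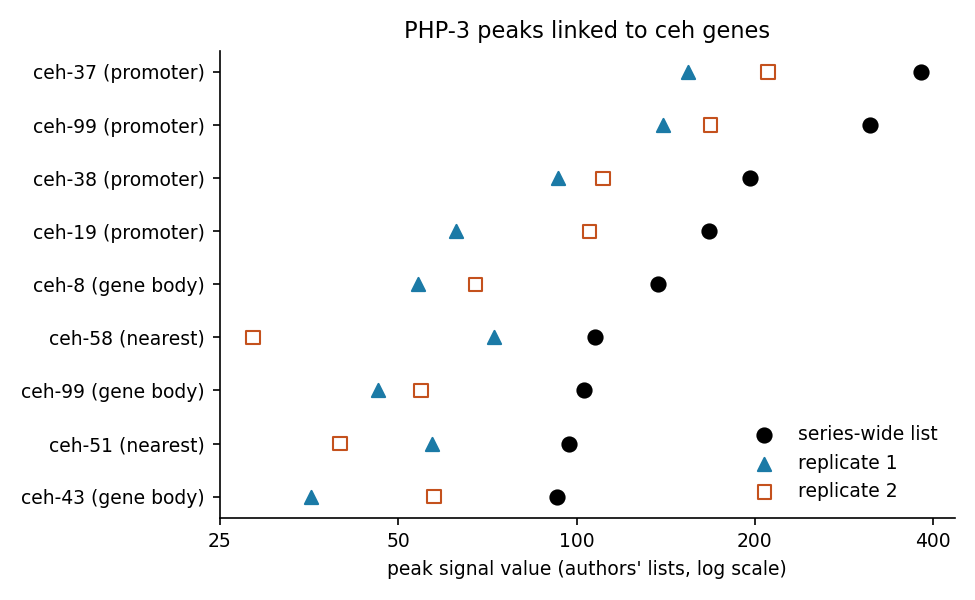
Signal values (horizontal, log scale) of the 9 PHP-3 peaks linked to ceh genes, 1 row per peak with its link in brackets; filled circles are the series-wide list, triangles replicate 1 and open squares replicate 2. The 4 promoter peaks, at 168 to 382 in the series-wide list, are the strongest, and replicate 1 lies above replicate 2 only at ceh-58 and ceh-51.

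The strongest of them stood at ceh-37 (WBGene00000458), a PRD-class gene of the Otx type that acts in the olfactory neuron AWB. Its signal was 154 in replicate 1 and 210 in replicate 2, and 382 in the series-wide list, the 87th highest of 3559. The peak lay on chromosome X (14208023 to 14208218, assembly ce11), in intergenic sequence 98 bp upstream of the 5′ end. This was the only ceh promoter summit in the window of no other protein-coding gene. A pair of short non-coding RNAs annotated on opposite strands under the name K06G5.10 (14208112 to 14208167) began 14 bp from it. Of the 16 ceh genes on X, ceh-37 alone had a peak by any link, and that was its promoter peak. The any-link share of all protein-coding genes on X was not counted. Promoter summits were at 6.25% of ceh genes on X, against 10.1% of all protein-coding genes on X. On the autosomes they were at 6.98% of ceh genes, against 7.6% of all protein-coding genes. X carries 27.1% of the ceh genes and 13.7% of all protein-coding genes.

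The sequence around the ceh-37 summit is printed on the plus strand of X (14208048 to 14208148), with capitals for a match to the Hox and PBC composite TGATNNAT.

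ceh-37: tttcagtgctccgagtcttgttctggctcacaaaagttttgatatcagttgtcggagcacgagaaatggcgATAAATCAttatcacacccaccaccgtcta

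The match reads ATAAATCA because it lies on the minus strand, 21 bp from the summit (14208119 to 14208126). A GATA-factor string, TGATAA, stood next to it on the minus strand as TTATCA (14208127 to 14208132). The posterior Hox strings TTTATG and TTTACG were not in this window. Distances of strings from a summit, here and below, are counted to the lowest coordinate of the match.

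At ceh-99 (WBGene00044032; II, 12519981 to 12524478) there were 2 peaks. The stronger (12518926 to 12519105) had signals of 140 in replicate 1 and 168 in replicate 2, and 313 series-wide, rank 178. Its summit was 951 bp upstream, close to the far edge of the promoter window. It was nearer to other features: 171 bp upstream of srh-70, a serpentine receptor gene on the opposite strand, and 56 bp from the snoRNA gene T21B4.20 (12519086 to 12519217). The weaker peak (12520478 to 12520801) lay in an intron of ceh-99, 659 bp downstream of the 5′ end. It had signals of 46.3 in replicate 1 and 54.6 in replicate 2, and 103 series-wide, and only replicate 2's own thresholded list held it. No role is given here for ceh-99.

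The windows of both summits are shown on the plus strand of II, from 12518980 to 12519080 for the promoter peak and from 12520590 to 12520690 for the intron. Neither held TTTATG or TTTACG, and neither held TGATNNAT, so no letters are in capitals.

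ceh-99 promoter: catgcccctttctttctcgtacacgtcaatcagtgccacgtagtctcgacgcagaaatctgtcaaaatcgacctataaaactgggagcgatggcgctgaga

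ceh-99 intron: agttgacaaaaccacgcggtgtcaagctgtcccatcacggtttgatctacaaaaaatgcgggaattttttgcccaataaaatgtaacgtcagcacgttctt

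The MEIS-type string TGACAG stood 8 bp from the promoter summit on the minus strand, read as CTGTCA (12519038 to 12519043).

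The third promoter peak was at ceh-38 (WBGene00000459), a CUT-class gene of the ONECUT type, one of the CUT genes expressed throughout the nervous system. It had signals of 92.9 in replicate 1 and 111 in replicate 2, and 196 series-wide, rank 617. The peak (II, 6951389 to 6951712) had its summit 25 bp downstream of the outermost 5′ end, in the annotated 5′ UTR, the closest to a 5′ end of any ceh gene. The same summit was in the promoter window of malt-1, a divergent gene on the other strand (6947855 to 6951300) that encodes a paracaspase. TGACAG was found there too, on the minus strand (6951521 to 6951526), 30 bp from the summit.

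The fourth was at ceh-19 (WBGene00000442), an ANTP-class gene that acts in the pharyngeal motor neuron MC. Replicate 1 gave 62.6 and replicate 2 gave 105, and the series-wide signal was 168, rank 901. The peak (IV, 7956694 to 7957017) was 907 bp upstream of ceh-19 and 411 bp upstream of csr-1, an Argonaute gene transcribed in the other direction. The window of frpr-10, a neuropeptide receptor gene that overlaps csr-1, also held it. The ceh-19 window (IV, 7956806 to 7956906, plus strand) held both kinds of Hox string, in capitals.

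ceh-19: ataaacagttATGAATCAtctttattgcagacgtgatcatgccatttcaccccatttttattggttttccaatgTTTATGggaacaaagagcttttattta

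TTTATG was on the plus strand, 24 bp from the summit (7956880 to 7956885), and TGATNNAT on the minus strand as ATGAATCA, 40 bp from it on the other side (7956816 to 7956823). Promoter summits in the windows of 2 or more protein-coding genes were 3 of the 4 at ceh genes, against 19.7% of all 1405 promoter summits, a comparison made after these values were seen. With 4 summits this is only a description, and it leaves the gene to which each peak belongs undecided for ceh-99, ceh-38 and ceh-19.

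**Figure D2:**
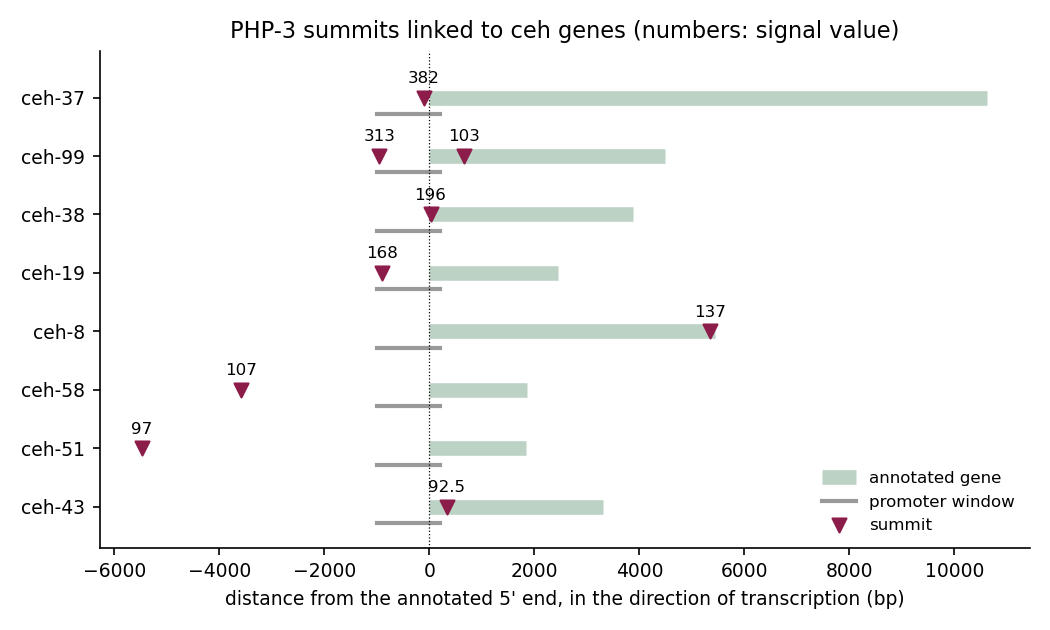
Position of each linked summit (triangles, with its series-wide signal value) relative to the annotated 5′ end of its ceh gene, in bp along the direction of transcription; bars are the annotated genes and grey lines the promoter windows. Only ceh-37 and ceh-38 had a summit within 100 bp of the 5′ end.

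The gene-body summits were weaker. At ceh-43 (WBGene00000463; III, 4446638 to 4449943), the Distal-less gene of the worm, which acts in the anterior epidermis and in dopaminergic neurons, signals were 35.6 in replicate 1 and 57.4 in replicate 2, and 92.5 series-wide. Its score, 916, was the only one of the 9 below 1000. The summit lay in an intron, 332 bp downstream of the 5′ end. The 5′ end of a tRNA gene within that intron (WBGene00014268, 4449533 to 4449605) lay 6 bp from the summit. The window is given on the plus strand of III (4449561 to 4449661), with capitals for the part of the tRNA gene that it covers.

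ceh-43: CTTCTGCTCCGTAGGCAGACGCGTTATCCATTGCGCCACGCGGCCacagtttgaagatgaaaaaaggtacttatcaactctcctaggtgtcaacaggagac

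The tRNA gene is on the minus strand, as is ceh-43, and takes up the left part of the window up to the summit region. Of the Hox and PBC strings none was in it, and TGATAA was found on the minus strand (4449631 to 4449636). Summits within 300 bp of a tRNA, snoRNA, snRNA, rRNA or miRNA gene were 2 of the 9 linked to ceh genes, those at ceh-43 and the ceh-99 promoter, against 10.7% of all summits. The part of these RNA genes in the 2 peaks was not tested.

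At ceh-8 (WBGene00000433), a PRD-class gene, signals were 53.9 in replicate 1 and 67.5 in replicate 2, and 137 series-wide, rank 1367. The peak (I, 8245439 to 8245762) overlapped the 3′ end of the gene, with its summit in the 3′ UTR. That summit was 5347 bp from the gene's outermost 5′ end and 1366 bp from the nearest 5′ end of its 3 transcripts. The nearest 5′ end of any protein-coding gene was that of the cuticle collagen gene col-63, 638 bp away, whose promoter window held the summit. A non-coding RNA, ZK265.11, is also annotated there. Neither replicate's own thresholded list held the peak.

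The peaks nearest ceh-58 and ceh-51, both below the list's median signal, are given because they complete the 8 genes, a choice made after their values were seen. Replicates differed most at ceh-58 (WBGene00007417), with 72.7 in replicate 1 and 28.4 in replicate 2, and 107 series-wide. Replicate 1 was 2.56 times replicate 2, a ratio reached or passed at 13 of 3493 peaks. Only replicate 1's own thresholded list held it, and the stricter conservative list did not. The summit (II, 10373185) was intergenic, 3588 bp upstream. Its window (10373135 to 10373235, plus strand) held TGATNNAT on the plus strand, in capitals, 32 bp from the summit.

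ceh-58: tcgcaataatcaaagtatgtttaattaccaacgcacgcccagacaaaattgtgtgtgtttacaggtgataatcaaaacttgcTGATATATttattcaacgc

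It was also the only one of the 9 windows with the homeodomain core TAATTA (10373156 to 10373161), and TGATAA stood 15 bp from the summit.

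For ceh-51 (WBGene00013583), an NK-type ANTP gene that acts in specification of mesoderm, signals were 57.1 in replicate 1 and 39.9 in replicate 2, and 97.0 series-wide. The summit (V, 18868660) lay 5473 bp upstream, in an intron of emb-4, which encodes a nuclear helicase. Its window (18868610 to 18868710, plus strand) held TTTACG on the minus strand, in capitals as CGTAAA, 40 bp from the summit.

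ceh-51: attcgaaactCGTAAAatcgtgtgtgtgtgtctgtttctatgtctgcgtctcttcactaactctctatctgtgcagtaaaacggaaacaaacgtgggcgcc

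Over the 9 windows of 50 bp to each side of a summit, searched on both strands, TTTATG was in 1 (11.1%, against 13.5% of all 3559 windows) and TTTACG in 1 (11.1%, against 6.35%). TGATNNAT was in 3, at ceh-37, ceh-19 and ceh-58 (33.3%, against 9.16%), but it was in 0 of 9 windows of 25 bp to each side (against 4.58%), and in the wider windows of 100 bp to each side it was again in 3 (33.3%, against 17.3%). TGACAG was in 2 (22.2%, against 5.73%), TAATTA in 1 (11.1%, against 3.01%) and TGATAA in 3 (33.3%, against 29.9%). TGATNNAT can overlap TTTATG or TTTACG when the letters allow it, but no such pair overlapped here. A match is a string of letters and no evidence of a site, and 9 windows are too few to set these shares apart from those of the list.

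By any link only 15.9% of all protein-coding genes had a peak, so having none was usual, and no class was compared with that share. The other 51 ceh genes (86.4%) had no linked peak in the thresholded list. They included each of the 3 SINE genes ceh-32, ceh-33 and ceh-34, the POU genes ceh-6 and ceh-18, the LIM gene ceh-14, and the CUT genes ceh-21, ceh-39, ceh-41, ceh-48 and ceh-49. Among PRD genes, 6 of 8 had none: ceh-10, ceh-17, ceh-36, ceh-45, ceh-53 and ceh-54. Among ANTP genes 15 of 18 had none: ceh-1, ceh-2, ceh-5, ceh-7, ceh-9, ceh-12, ceh-16, ceh-22, ceh-23, ceh-24, ceh-27, ceh-28, ceh-30, ceh-31 and ceh-62. The unclassified genes without a peak, 19 of 21, were ceh-57, ceh-63, ceh-74, ceh-75, ceh-76, ceh-79, ceh-81, ceh-82, ceh-83, ceh-84, ceh-86, ceh-87, ceh-88, ceh-89, ceh-90, ceh-91, ceh-92, ceh-93 and ceh-100.

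Ranked peaks below the threshold lay in the promoter windows of 35 of these 51 genes (68.6%), and the strongest per gene had a median signal of 37.8. The same share was not counted for all protein-coding genes without a linked peak, so 68.6% is not read as a result about ceh genes. With the genes that had a linked peak included, thresholded summits then counting among the ranked ones as they do for all genes, 43 of the 59 members had a ranked series-wide summit in the window (72.9%, against 65.8% of all protein-coding genes). The strongest such summit per gene had a median signal of 38.6 over those 43, against 41.4 over the 13149 protein-coding genes with one, and 19 of the 43 were above the median of all those genes. In replicate 1, 31 of 59 members had a ranked promoter summit (52.5%, against 45.9% of all protein-coding genes), with a median of 25.9, against 27.2 for all those with one. In replicate 2, 30 of 59 did (50.8%, against 50.6% of all), with a median of 26.9, against 28.1.

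A gap, named after the values were seen and not tested, lay between the 4 promoter peaks and the rest. The weakest of them, at ceh-19, had 168, and the next strongest ranked promoter summit of any ceh gene, at ceh-12 (WBGene00000436), had 73.0. That gene, the ortholog of the motor neuron gene HB9, acts in the VB motor neurons of the ventral cord. Its ranked summit was 297 bp upstream (I, 5839823 to 5840146), with signals of 36.2 in replicate 1 and 35.5 in replicate 2, but a score of only 161. It was higher than 82.7% of the strongest promoter signals of other genes, and the ceh-19 summit was higher than 96.2%. Few genes of any kind therefore lie in the gap. The 4 next strongest among genes with no linked peak were ceh-79 (64.2, score 85), ceh-88 (60.2, score 234), ceh-100 (53.2, score 220) and ceh-82 (49.9, score 82). The ceh-88 summit lay in a coding exon of C49C3.4, the ceh-100 summit in the 5′ UTR of lips-15, and the ceh-82 summit in a coding exon of its neighbour ceh-81. At ceh-88 no peak of replicate 2's ranked list overlapped, and at ceh-82 none of replicate 1's did.

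In the bodies of genes with no linked peak, the 3 strongest ranked peaks were in introns of ceh-18, ceh-91 and ceh-31, named here after their values were seen. The POU gene ceh-18, which acts in the gonadal sheath and in control of oocyte meiosis, had 78.5 with a score of 484, 13372 bp from its 5′ end; the replicates gave 41.9 and 32.7. A ranked peak at ceh-91 had 75.8 but a score of 73. The BarH-type ANTP gene ceh-31 had 72.5 with a score of 509, and the replicates gave 35.0 and 38.96. The lowest score kept in the thresholded list was 830, so the scores of these 3 peaks were well below what was kept.

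**Figure D3:**
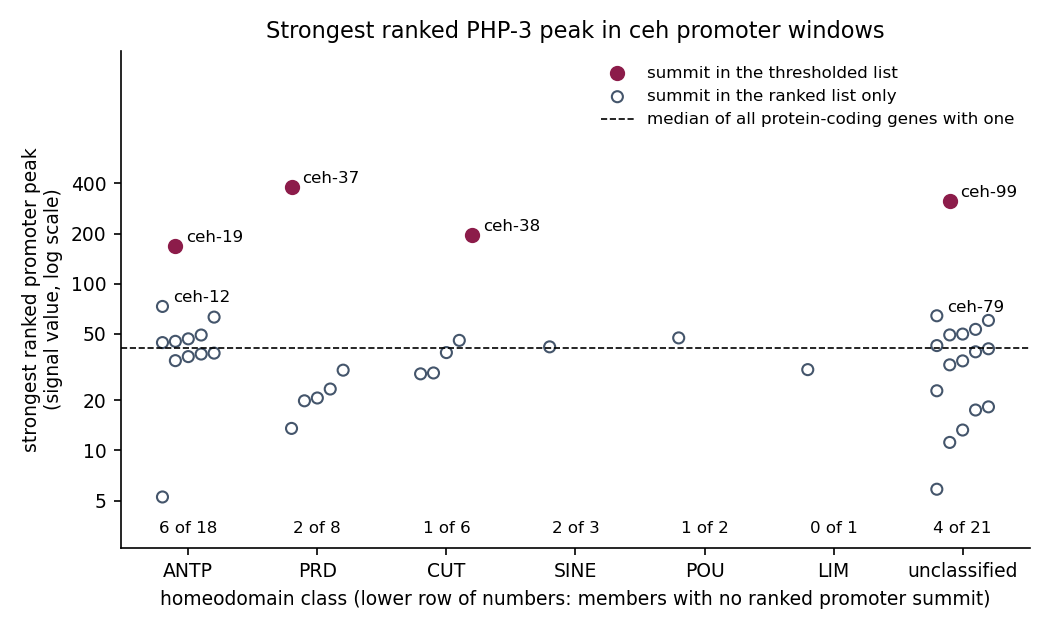
Strongest series-wide ranked peak in the promoter window of each ceh gene (vertical, signal value, log scale) by homeodomain class, with filled points for summits of the thresholded list; the dashed line is the median of all protein-coding genes with a ranked promoter summit, 41.4, and the numbers at the bottom count members with none. The 4 filled points, at 168 to 382, are an ANTP, a PRD, a CUT and an unclassified gene, and the highest open point is ceh-12 at 73.0.

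The classes overlapped in these values. Of ANTP genes, 12 of 18 had a ranked promoter summit, from 5.25 (ceh-22) to 168 with a median of 44.7. Of PRD genes, 6 of 8 did, from 13.5 to 382 with a median of 21.97. Of CUT genes, 5 of 6 did, from 28.8 to 196 with a median of 38.6, and of unclassified genes 17 of 21, from 5.84 to 313 with a median of 39.02.

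At 14 of the 59 ceh genes no ranked series-wide summit lay in the promoter window or the gene body (23.7%, against 23.1% of all protein-coding genes). For 7 of them, ceh-6, ceh-7, ceh-23, ceh-28, ceh-34, ceh-36 and ceh-76, neither replicate's ranked list had one either. The matching share of all protein-coding genes was not counted for this set of 7, so whether it is unusual is not known. Members of this set with well-known roles include ceh-6, a POU gene needed for the Y rectal cell to become the PDA neuron, ceh-34, which specifies pharyngeal neurons, and ceh-36, an Otx-type gene of the chemosensory neurons AWC and ASE. From ceh-6 the nearest thresholded summit was 61725 bp away, from ceh-34 47716 bp and from ceh-36 16704 bp. From ceh-14, a LIM gene expressed in several tail neurons, it was 26350 bp away. These 4 distances are given for the genes' known roles and were chosen after the values were seen.

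Distances to the nearest thresholded summit were like those of other genes. For the 59 ceh genes they were 25 to 61782 bp with a median of 12485 bp, against a median of 12729 bp for all protein-coding genes on the 6 chromosomes. Within 5000 bp of a summit lay the 5′ ends of 25.4% of ceh genes, against 26.7% of all protein-coding genes, and within 10000 bp 45.8%, against 42.9%.

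**Figure D4:**
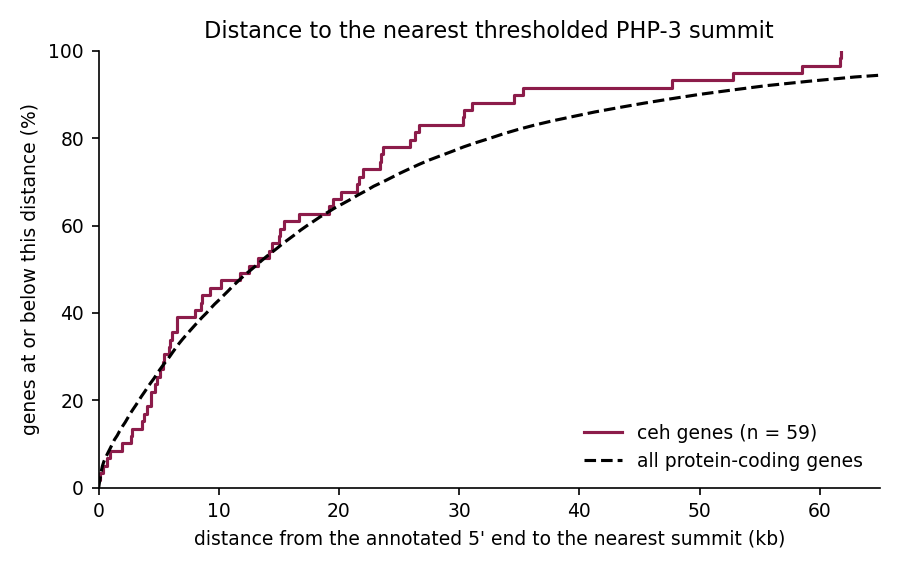
Cumulative share of genes (vertical, %) by distance from the annotated 5′ end to the nearest thresholded summit (horizontal, kb), for the 59 ceh genes (solid) and all protein-coding genes (dashed). The medians are 12485 bp for ceh genes and 12729 bp for all genes.

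Beside other transcription factor genes, ceh genes had a promoter summit in 4 of 59 cases (6.78%) and nuclear hormone receptor genes in 24 of 269 (8.92%). Homeobox genes under other names, with Hox genes and TALE cofactors left out, had one in 0 of 28. The last group had peaks by other links at unc-39 (a Six-type gene), dve-1 and zfh-2, 3 of 28 in all (10.7%, against 13.6% of ceh genes). Of the 13 Hox genes and TALE cofactors, 2 had a promoter summit (15.4%), nob-1 and ceh-60. By any link 6 had a peak (46.2%): the tagged gene php-3 itself, its neighbour nob-1, ceh-20, ceh-60, psa-3 and unc-62. Of all protein-coding genes, 7.94% had a promoter summit and 15.9% a peak by any link. No difference between these lists was tested.

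In the replicates' own thresholded lists the same 4 genes, ceh-37, ceh-99, ceh-38 and ceh-19, had a promoter summit in replicate 1 (6.78%, against 4.21% of all protein-coding genes) and in replicate 2 (6.78%, against 4.68%). Replicate 1's list held a gene-body summit at 0 of 59 ceh genes, against 2.29% of all protein-coding genes, and replicate 2's at 1, ceh-99 (1.69%, against 2.69%). By any link, 5 ceh genes had a peak in replicate 1 (8.47%, against 8.68% of all protein-coding genes) and 4 in replicate 2 (6.78%, against 9.77%). For gene-body summits and for any link, the shares of ceh genes and of all genes were both lower than in the longer series-wide list.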

How the data were processed

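PHP-3 ChIP-seq peaks of whole L4 larvae were analysed from 7 peak lists as deposited, with ce11 coordinates per the deposited listing of files: series-wide thresholded, conservative and ranked lists, and a thresholded and a ranked list for each of 2 biological replicates. The authors gave each peak a signal value, whose normalization is not stated, and an IDR-scaled score. No source used here names the aligner or peak caller, and read depth is unknown. Genes came from Ensembl release 115 and sequence from RefSeq WBcel235, which share ce11 coordinates; 0 peaks ended beyond a chromosome. Summits (start plus offset) were linked to genes by promoter window, gene body or nearest protein-coding 5′ end, with Python 3.11.15, numpy 2.4.6, pandas 2.3.3 and matplotlib 3.10.9. The linking step was checked on made-up positions. No test was run, as there was 1 group.

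The members and lists were chosen with earlier results of these data known. Values are given for members with a promoter or gene-body peak, those nearest a peak at or above the median signal, and the 5 members without a peak whose ranked promoter summit was strongest; others were added after values were seen, as said beside them. Alternatives were the conservative list, each replicate's own list, peaks at or above the median signal, windows of 500 and 2000 bp, every transcript's 5′ end, motif windows of 25 and 100 bp and, chosen after seeing the data, leaving out summits near small RNA genes.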

Additional observations from a re-analysis of the deposited data

How the results depend on the processing

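The count of 4 ceh genes with a promoter peak was the same, with the same genes, in the conservative list, in each replicate's own list, among peaks at or above the median signal and with every transcript's 5′ end. It was 2 with a 500 bp upstream window, which drops ceh-99 and ceh-19 by its construction, 5 with 2000 bp, which adds ceh-81, and 3 without summits within 300 bp of a small RNA gene, an alternative chosen after seeing the data, which drops ceh-99. Without replicate 1 or replicate 2, gene-body counts ranged from 0 to 1 (3 in the series-wide list), nearest-peak counts were 3 and 3 (6) and counts by any link ranged from 4 to 5 (8); these lists are shorter, and the shares of all genes with a gene-body peak or any link were lower there too. Among peaks at or above the median signal these were 1, 2 and 5. For these counts, shares of all protein-coding genes were taken only in the main list and, without nearest-peak links, in each replicate's own list. Whether the counts at other settings changed more than those of all genes was therefore not tested. Windows with TTTATG or TTTACG were 2 of 9 at 50 bp to each side (22.2%, against 18.9% of all 3559 windows). They were 0 at 25 bp (against 9.89%) and 3 at 100 bp (33.3%, against 30.8%). The median signal of linked peaks, 137 in the main list, was 152 in the conservative list and 196 among peaks at or above the median, which leaves out the weaker ones by construction; medians of the replicates' own lists, 92.9 and 111, are on those lists' own scale and are not compared with it. Since depth is unknown, a gene with no peak may lack one or have one too weak to be kept. No paired analysis was possible because there was 1 group and no test.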
